A study of Homo sapiens with 6 samples.

Results

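The 10 genes described here are 9 genes of the MRP type of the ABCC family (ABCC1, ABCC2, ABCC3, ABCC4, ABCC5, ABCC6, ABCC10, ABCC11 and ABCC12) and ABCG2. They were taken by gene name from the deposited tables, where each name matched 1 of 58735 rows, and the question was which efflux pumps besides ABCB1 were expressed and which were silent. RNAseq was done on C4-2B, an established human cell line of castration resistant prostate cancer, and on RC4-2B, a subclone of it that was selected with the taxane cabazitaxel (CBZ). Selection ran in repeated cycles over 4 months from 0.1 nM to 20 nM CBZ, and both lines were grown for 72 h before RNA was isolated. Each line had 3 biological replicates, and the resistant line is 1 subclone, so a difference between the lines cannot be told apart from a difference between that subclone and the rest of the parental population.

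ABC transporters use the energy of ATP to move substrates across membranes. The MRP-type ABCC proteins export organic anions, among them glutathione, glucuronide and sulfate conjugates of drugs, and ABCG2 exports a range of unconjugated and sulfated compounds. ABCB1, the pump best known for exporting taxanes, is a relative but no member of this group.

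Libraries held 15707134 to 18052517 counts, and 3 counts, taken as the floor of detection, corresponded to 0.17 to 0.188 CPM (counts scaled to the library's depth). RC4-2B replicate 2 stood apart: its log2 values differed from those of the other RC4-2B replicates with an SD over genes of 0.556 and 0.632, against 0.247 between replicates 1 and 3 and 0.168 to 0.222 within C4-2B. Changes of the tested members and of the other genes named, marker genes aside, are therefore also given without that library. In that fit 12.5% of all genes tested were called. All 6 prostate luminal marker genes were at an FPKM of 1 or more in every library. Their summed FPKM was 523 to 536 in C4-2B, against 321 to 376 in RC4-2B. With all libraries, 2 of the 6 were called lower in RC4-2B, against 136 of all 15054 genes tested. These were KLK3, at 178 to 198 FPKM in C4-2B, against 6.35 to 11.5 in RC4-2B, and TMPRSS2, at 25.1 to 28.8 against 10.1 to 14.7. The other 4 were not called, among them FOLH1, at 165 to 167 FPKM against 142 to 224, so the markers did not fall alike. Of 9 marker genes of other cell types, 4 had no library of either line above 3 counts. The other 5 had enough counts to be tested, and none of these was called. The highest was COL1A1, at 1.93 to 2.32 FPKM in C4-2B, against 2.12 to 3.33 in RC4-2B. The summed FPKM of the 9 was 3.11 to 3.94 in C4-2B, against 3.44 to 4.7 in RC4-2B. The part of these differences in the results below was not tested.

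The sequences before the transcription starts of a pair of expressed members and of the silent members are shown first, because they differ in CpG dinucleotides, the sites of DNA methylation in human promoters. RefSeq entries (GRCh38.p14) were matched for 8 of the 10 members, with 18 annotated starts between them, and ABCC1 and ABCC3 are named only. Bases that lie inside the annotated span of the gene were left out, each sequence is read 5′ to 3′ in the direction of its gene, and capitals mark CpG. ABCC4 is shown from chr13:95301476-95301701 (minus strand) and ABCC5 from chr3:184018016-184018134 (minus strand). ABCC2 is shown from chr10:99782390-99782639 (plus strand) and the start of ABCC12 farthest upstream from chr16:48156019-48156243 (minus strand).
ABCC4: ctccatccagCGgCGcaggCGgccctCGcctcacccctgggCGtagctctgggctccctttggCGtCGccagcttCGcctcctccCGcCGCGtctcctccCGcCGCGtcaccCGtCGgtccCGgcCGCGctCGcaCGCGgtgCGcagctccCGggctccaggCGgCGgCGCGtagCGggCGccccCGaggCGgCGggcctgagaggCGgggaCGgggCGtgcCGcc
ABCC5: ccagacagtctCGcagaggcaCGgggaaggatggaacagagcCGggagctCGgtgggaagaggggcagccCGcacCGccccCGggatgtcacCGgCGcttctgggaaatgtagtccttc
ABCC2: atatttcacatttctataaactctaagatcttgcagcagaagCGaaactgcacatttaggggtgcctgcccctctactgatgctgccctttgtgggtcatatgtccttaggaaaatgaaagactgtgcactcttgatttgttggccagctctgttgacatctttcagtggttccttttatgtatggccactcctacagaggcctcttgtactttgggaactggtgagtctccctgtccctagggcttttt
ABCC12: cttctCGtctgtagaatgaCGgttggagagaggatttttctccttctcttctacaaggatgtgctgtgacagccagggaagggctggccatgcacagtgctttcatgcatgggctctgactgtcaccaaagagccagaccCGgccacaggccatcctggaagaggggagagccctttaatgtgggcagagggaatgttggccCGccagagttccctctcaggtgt
The sequences shown hold 37 CpG over 226 bases for ABCC4, 9 over 119 for ABCC5, 1 over 250 for ABCC2 and 4 over 225 for ABCC12.

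In the full 250 bases before the start, ABCC4 had 42 CpG, more than 98.6% of 35116 such windows over all genes, whose median was 11. ABCC5 had 21 CpG and the windows of ABCC10 had 14 and 16. ABCC2 had 1 CpG, at percentile 6.06, and the 3 windows of ABCC12 had 2, 4 and 7. CpG content did not order the members by level: ABCC6, at a low level, had 21 and 22 CpG in its 2 windows, ABCG2 had 2 to 32 over 5 windows, and ABCC11 had 0, 2 and 24. Searching both strands, the GC box letters GGGCGG were in 42.6% of all windows, the TATA box letters TATAAA in 10.7%, the antioxidant response element core TGACNNNGC in 10.9% and the CCAAT box letters CCAAT in 32.0%. The ABCC4 window held 1 antioxidant response element core, the ABCC5 window held 1 GC box and 1 TATAAA, and the ABCC2 window held 1 TATAAA. Of the 2 windows of ABCC10, 1 held 3 GC boxes and the other 1 TATAAA and 1 antioxidant response element core. A window of ABCC11 and 2 overlapping windows of ABCG2 held 2 GC boxes each. Among the members CCAAT was found in ABCC12, with 2 matches in 1 of its 3 windows, and the other 3 motifs were in none of these windows. These are matches of letters, and methylation and binding were not measured.

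The levels of the members fell into separate tiers. On the FPKM scale, which is per length and so allows genes to be set side by side, ABCC4 and ABCC1 were the highest, with means over the 6 libraries of 25.3 and 20.3 FPKM. ABCC5 at 3.36 and ABCC10 at 1.91 FPKM came next, followed by ABCG2 at 0.261 and ABCC6 at 0.256. ABCC11, ABCC3 and ABCC2 were at 0.04, 0.0159 and 0.0112 FPKM, and ABCC12 was at 0. ABCC1 exceeded ABCC5, ABCC5 exceeded ABCC10 and ABCC10 exceeded ABCG2 with no overlap between libraries in either line. ABCC4 and ABCC1 overlapped in C4-2B but not in RC4-2B, and ABCG2 and ABCC6 overlapped in both lines.

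**Figure D1:**
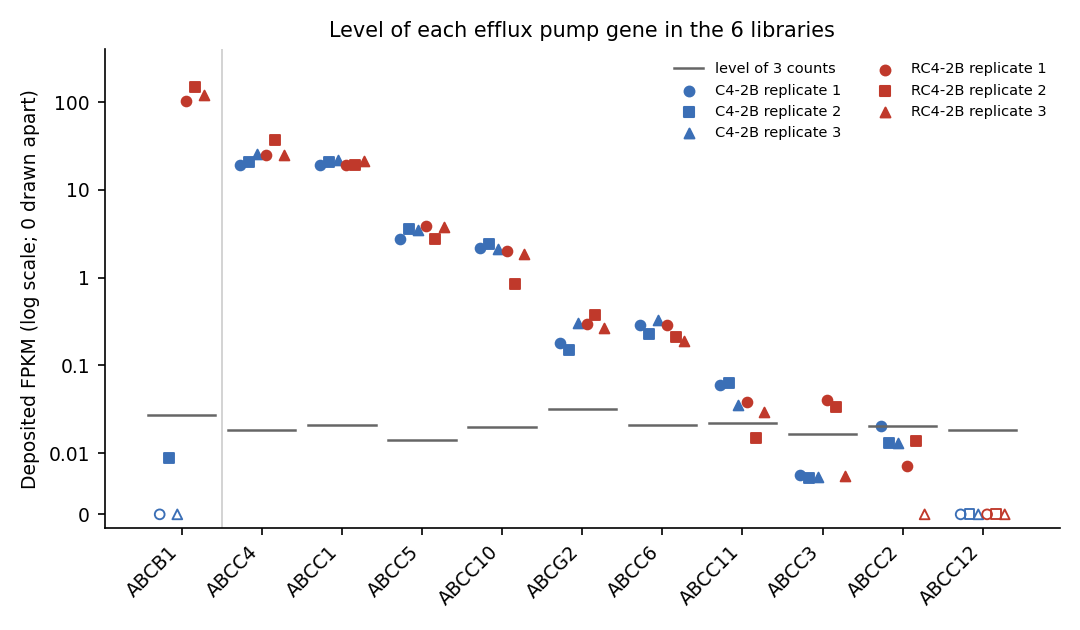
Deposited FPKM (log scale, with 0 drawn apart) of ABCB1 and the 10 members in each of the 3 C4-2B (blue) and 3 RC4-2B (red) libraries; the grey line is the FPKM to which 3 counts correspond. ABCC4 and ABCC1 lie between 19.2 and 36.8 FPKM, ABCC2 and ABCC12 at or under the line in all 6 libraries, and ABCB1 is above the members in RC4-2B alone.

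None of the members passed the test between RC4-2B and C4-2B. Of the 10 members, 6 passed the filter on low counts (ABCC1, ABCC4, ABCC5, ABCC6, ABCC10 and ABCG2), and 0 of these 6 were called by edgeR at an adjusted p of 0.05, where 1.98% of all 15054 genes tested were called. At an unadjusted p under 0.05 the count was 1 of 6, ABCC4, against 21.4% of all genes tested. DESeq2 called 0 of the 6 members with an adjusted p, against 902 of all 29108 genes it gave a p. At an unadjusted p under 0.05 it had 0 of 9 members, against 11.5% of those genes. CPM ranges of the lines were apart for 1 of 6, ABCC10, which was lower in RC4-2B, where 17.1% of all genes tested had lower ranges in RC4-2B. Ranges higher in RC4-2B were seen for 0 of 6, against 17.0% of all genes tested. The median log2 fold change was -0.01 over the 6 members and 0.01 over all genes tested. In bulk RNA, fewer cells that express a gene and less of its RNA per cell cannot be told apart. The p-values measure the spread between the 3 samples of each line.

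ABCC4 (MRP4) exports cyclic nucleotides, prostaglandins and nucleotide analogues, and lies on chromosome 13 (GRCh38, 95019829 to 95301475, minus strand). C4-2B replicates 1 to 3 had 3110, 3545 and 4254 counts of it, against 3867, 5962 and 4055 for RC4-2B. Per length, the FPKM was 19.2, 20.7 and 25.3 for C4-2B, against 25.0, 36.8 and 24.9 for RC4-2B. RC4-2B replicate 2 was the highest library, and the other RC4-2B libraries lay at the level of C4-2B replicate 3, so the lines overlapped. The log2 fold change was 0.38 (SE 0.17, 95% interval 0.0008 to 0.7667), with an unadjusted p of 0.0496 and an adjusted p of 0.233 by edgeR. Without RC4-2B replicate 2 it was 0.20 with an adjusted p of 0.214, and with a correction for GC content 0.24. By Pearson correlation of log2 CPM over the 6 libraries, the genes most like ABCC4 were HBP1 (r = 0.9966, rho = 0.829) and PRUNE1 (r = 0.994, rho = 1.0), but 1002 tested genes had an r over 0.9. These points share the 6 libraries and the shift of RC4-2B replicate 2.

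ABCC1 (MRP1), the first pump of this type to be linked to drug resistance, exports glutathione conjugates and leukotriene C4, and lies on chromosome 16 (15949577 to 16143074, plus strand). Its FPKM was 19.3, 20.9 and 22.1 for C4-2B, against 19.2, 19.4 and 21.1 for RC4-2B, from 2603 to 3256 counts in each library. The ranges overlapped almost fully. The 95% interval of its fold change was 0.799 to 1.11, the narrowest of the tested members. The log2 fold change was -0.08 with an adjusted p of 0.642 by edgeR, and -0.05 with an adjusted p of 0.763 without RC4-2B replicate 2.

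Setting both abundant pumps against each other, the ABCC4 to ABCC1 ratio of FPKM was 0.996, 0.99 and 1.15 for C4-2B, against 1.3, 1.89 and 1.18 for RC4-2B. The ratio was higher in each RC4-2B library than in each C4-2B library, a pattern noticed after the values were seen. The lowest RC4-2B ratio, 1.18, was just above the highest C4-2B ratio, 1.15. Of single genes tested, 17.0% had higher and 17.1% lower CPM ranges in RC4-2B, and the share among ratios of genes was not computed. The mean log2 ratio differed by 0.46, and by 0.25 without RC4-2B replicate 2. The genes differ in GC content, at 43.2% for ABCC4 and 54.9% for ABCC1. With the GC correction their log2 fold changes were 0.243 and 0.033. With RC4-2B replicate 2 also left out these were 0.146 and -0.02. No exact test of 3 against 3 samples could pass the threshold, and the difference is given as a description.

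ABCC5 (MRP5), an exporter of cyclic nucleotides and nucleotide analogues that also takes part in haem transport, lies on chromosome 3 (183919934 to 184018015, minus strand). It had 588, 808 and 783 counts in C4-2B, against 787, 586 and 810 in RC4-2B, or 2.74, 3.56 and 3.51 FPKM against 3.85, 2.73 and 3.76 FPKM. The lowest library of each line was at the same level and the lines overlapped. The log2 fold change was 0.05 (SE 0.18, 95% interval -0.36 to 0.46) with an adjusted p of 0.871 by edgeR, and 0.21 with an adjusted p of 0.244 without RC4-2B replicate 2.

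ABCC10 (MRP7) is a pump for which taxanes are known substrates, and it lies on chromosome 6 (43427366 to 43450430, plus strand). It had 330, 390 and 331 counts in C4-2B, against 294, 128 and 282 in RC4-2B, or 2.18, 2.43 and 2.10 FPKM against 2.03, 0.845 and 1.85 FPKM. RC4-2B replicate 2 was far below the other 5 libraries, and the highest RC4-2B library was just below the lowest C4-2B library. The log2 fold change was -0.52 (SE 0.30, 95% interval -1.21 to 0.17) with an adjusted p of 0.325 by edgeR. Without RC4-2B replicate 2 the log2 fold change was -0.21 with an adjusted p of 0.289, and with the GC correction it was -0.34. ABCC10 shares 76 exonic bases with DLK2, which had 7 to 40 counts, and the strand setting of the counting is not given in the sources used here.

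**Figure D2:**
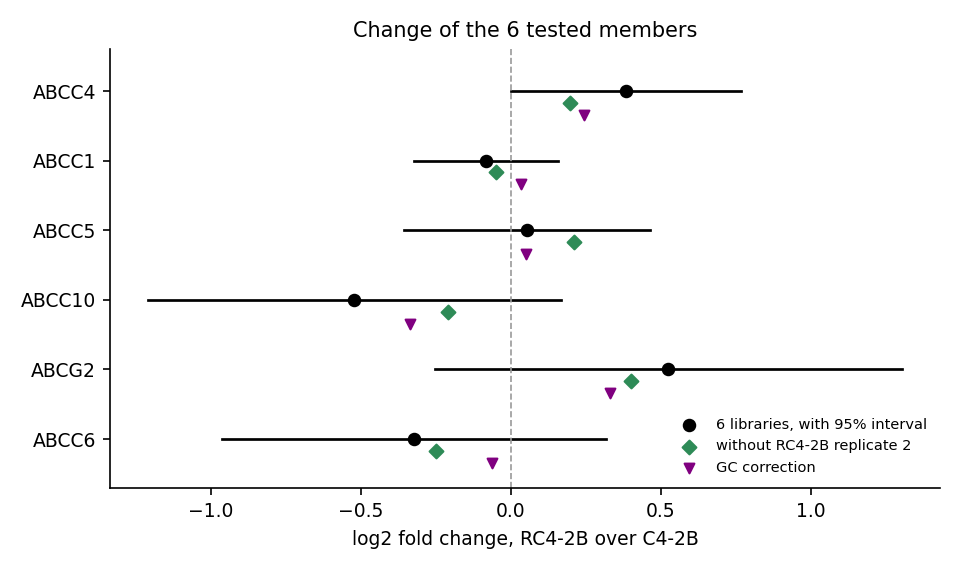
Log2 fold change of RC4-2B over C4-2B for the 6 tested members (black, edgeR, with 95% interval from 3 libraries per line), without RC4-2B replicate 2 (green) and with a GC correction (purple). The values for ABCC4 and ABCC10 lie nearer to 0 without that library, at 0.20 and -0.21.

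RC4-2B replicate 2 shifted with the GC content of the transcripts, and the members shifted with it to different extents. ABCC10, at 58.7% GC, was 1.25 log2 units below the mean of the other RC4-2B replicates, where the median of 626 genes of like GC was -0.50. ABCC4, at 43.2% GC, was 0.50 above them, where 1008 genes of like GC had a median of 0.25. ABCG2, at 39.0% GC, was 0.32 above against a median of 0.35, and ABCC5, at 50.4% GC, was at -0.53 against -0.03. ABCC1, at 54.9% GC, moved little, by -0.11 against -0.24, and ABCC6, at 59.4% GC, was at -0.19 against -0.56. The deviation of ABCC10, ABCC4 and ABCC5 in that library was larger than the median of genes of like GC, and its cause was not tested.

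**Figure D3:**
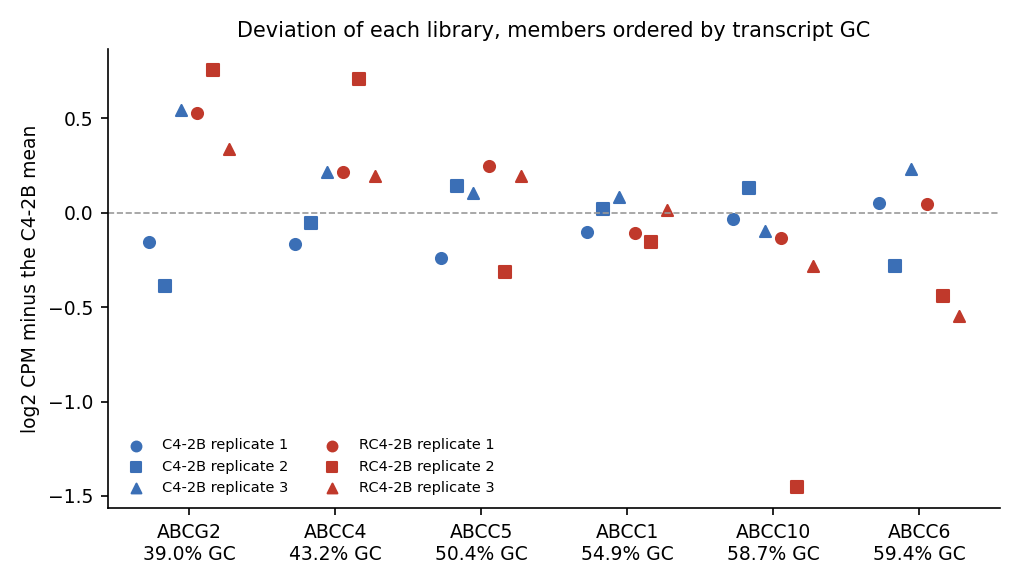
Log2 CPM of the 6 tested members in each library minus the C4-2B mean (pseudocount 0.1), with members ordered by the GC content of the transcript. RC4-2B replicate 2 (red square) lies highest for ABCG2 and ABCC4. It lies lowest for ABCC5 (-0.313), ABCC1 (-0.155) and ABCC10 (-1.454). For ABCC6, the member with the highest GC, it lies at -0.443, above RC4-2B replicate 3 at -0.545.

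ABCG2 (BCRP), an exporter of urate, sulfated steroids and several anticancer drugs, was at a low level in both lines. The gene lies on chromosome 4 (88090264 to 88231322, minus strand), and its coding sequence of 655 residues is much shorter than that of the ABCC members, since ABCG2 has a single nucleotide-binding domain and acts as a dimer. It had 17, 15 and 30 counts in C4-2B, against 27, 35 and 25 in RC4-2B. Per length, the FPKM was 0.180, 0.150 and 0.305 in C4-2B, against 0.299, 0.370 and 0.263 in RC4-2B. C4-2B replicate 3 was as high as RC4-2B, so the ranges overlapped. The log2 fold change was 0.53 with an adjusted p of 0.371 by edgeR, and its 95% interval, -0.25 to 1.31, reaches a fold change of 2.47 at its upper end and 0.839 at its lower end. Without RC4-2B replicate 2 it was 0.40 with an adjusted p of 0.539. It was 0.88 without C4-2B replicate 3 (adjusted p = 0.344) and 0.33 without C4-2B replicate 2 (adjusted p = 0.681). Its absolute log2 fold change and that of ABCC10 were the largest of the tested members and close to equal, and ABCC10 was the larger with RLE scaling (-0.53, against 0.52 for ABCG2). The genes most like ABCG2 over the 6 libraries were MYORG and TCP11L2 (r = 0.9907 and rho = 0.943 for each), among 117 tested genes with an r over 0.9.

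ABCC6 (MRP6), which mediates ATP release from liver cells and is mutated in pseudoxanthoma elasticum, lies 5.85 kb from ABCC1 on chromosome 16 (16148928 to 16223522, minus strand). It had 41, 34 and 49 counts in C4-2B, against 39, 30 and 27 in RC4-2B, at 0.189 to 0.332 FPKM. The lines overlapped. The log2 fold change was -0.32 (SE 0.28, 95% interval -0.96 to 0.32) with an adjusted p of 0.493 by edgeR. Without RC4-2B replicate 2 it was -0.25 with an adjusted p of 0.646. ABCC6 has near-identical pseudogenes, and how the counting divided shared reads among them is not given in the sources used here. ABCC6P1 had 14, 18 and 23 counts in C4-2B, against 6, 7 and 6 in RC4-2B, with a log2 fold change of -1.47 (SE 0.37) and an adjusted p of 0.083, or -1.52 and 0.0562 without RC4-2B replicate 2. Summed over ABCC6, ABCC6P1 and ABCC6P2, the level was 4.1 ± 0.551 CPM (SD, n = 3) for the parental line, against 2.74 ± 0.585 CPM for RC4-2B. ABCC6 made up 58.0 ± 3.5% of those counts in C4-2B, against 69.5 ± 3.76% in RC4-2B (SD, n = 3).

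The other 4 members were near or under the floor and were too low for the test. ABCC2 (MRP2), the pump of the canalicular membrane of the liver, had 3, 2 and 2 counts in C4-2B, against 1, 2 and 0 in RC4-2B. ABCC12 (MRP9) had 0 counts in all 6 libraries, which over their summed depth allows a level of up to 0.0293 CPM. These 2 members were at or under 3 counts in each library and were not detectable above the floor at this depth. Intervals and floors cover counting error only.

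ABCC3 (MRP3), an exporter of glucuronides and bile salts, had 1 count in each C4-2B library and 7, 6 and 1 in RC4-2B. The summed counts of 14 against 3 gave a ratio of RC4-2B to C4-2B of 4.8 (exact 95% counting interval 1.34 to 26.0), but RC4-2B replicate 3 was at the level of C4-2B. With no filter on low counts, edgeR called 0 of 9 members, ABCC3 among them, against 1250 of all 29109 genes tested. ABCC11 (MRP8), known for its variant that sets earwax type, had 8, 9 and 5 counts in C4-2B, against 5, 2 and 4 in RC4-2B. Its ratio was 0.514 (0.225 to 1.11). ABCC11 shares 289 exonic bases with LONP2 on the opposite strand, which had 2591 to 4102 counts, and without strand the reads of the pair cannot be told apart.

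Summed over the 10 members, the level was 44.0, 48.1 and 53.7 FPKM in C4-2B (48.6 ± 4.87, SD, n = 3) and 50.8, 60.5 and 52.1 FPKM in RC4-2B (54.5 ± 5.27). The ranges overlapped. ABCC1 and ABCC4 together made up 86.6% to 88.2% of the sum in C4-2B, against 87.1% to 93.0% in RC4-2B. ABCB1 had 0 to 1 count in C4-2B, against 10742 to 15948 counts in RC4-2B. Its FPKM was 2.04, 2.42 and 2.31 times the sum of all 10 members in the RC4-2B libraries. Among all protein-coding genes, silent ones included, ABCC4 lay at percentile 87.8 to 94.4 over the 6 libraries. ABCC1 lay at 87.9 to 89.7 and ABCC5 at 59.3 to 63.6. ABCC10 lay at percentile 48.7 to 57.8 and ABCG2 at 38.6 to 43.9, while ABCB1 lay at 98.5 to 99.1 in RC4-2B. On this scale ABCC2, at or under 3 counts, lay at 0 to 29.2. The median of protein-coding genes above 3 counts was 4.53 to 4.83 FPKM. ABCC5, ABCC10 and ABCG2 were below that median in every library.

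**Figure D4:**
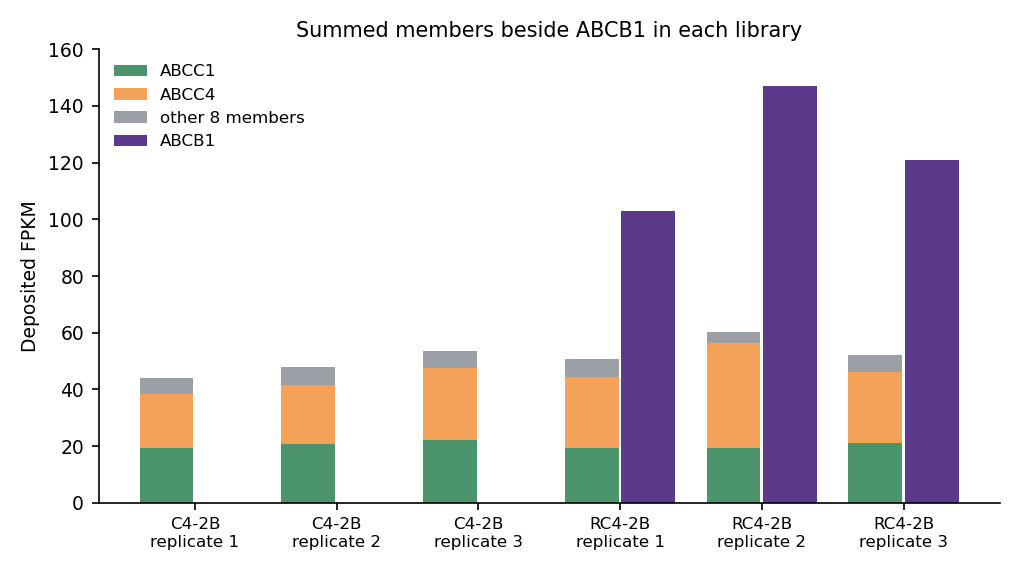
Deposited FPKM of the 10 members, stacked as ABCC1 (green), ABCC4 (orange) and the other 8 (grey), beside ABCB1 (purple) in each library. The stacked bars reach 44.0 to 60.5 in both lines, while ABCB1 reaches 103 to 147 in RC4-2B and lies at 0 to 0.00869 in C4-2B.

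The members lie on 7 chromosomes, and none of the 10 nearest tested genes that flank a tested member was called by edgeR, where 1.98% of all genes tested were called. At an unadjusted p under 0.05 were 2 of 10, near the 21.4% of all genes tested. These were DZIP1, 277 kb from ABCC4 (log2 fold change 1.01, adjusted p = 0.0919), and PARL, 35.0 kb from ABCC5 (-0.79, adjusted p = 0.102). Both were called without RC4-2B replicate 2, DZIP1 at 0.71 (adjusted p = 0.0358) and PARL at -0.60 (adjusted p = 0.0196). In that fit 12.5% of all genes tested were called. These genes were picked for their small p with all libraries, and the other flanking genes are not given for that fit. ABCC11 and ABCC12 lie 10.9 kb apart on chromosome 16 and were both near or at 0.

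Other genes of these pumps' pathways were taken from 5 lists with 50 genes, of which 37 were tested. Of these 37, 2 were called higher and 1 lower in RC4-2B, and 34 were not called, where 1.98% of all genes tested were called. In the list of glutathione synthesis and conjugation, which supplies substrates for the MRP pumps, 16 of 20 genes were tested and the median log2 fold change was -0.01. GSTA1, a glutathione transferase, had 14, 8 and 13 counts in C4-2B, against 42, 40 and 58 in RC4-2B (log2 fold change 2.03, SE 0.33, adjusted p = 0.0237, and 2.15 without RC4-2B replicate 2). GSTT2B, another transferase, had 64, 58 and 47 counts in C4-2B, against 15, 6 and 14 in RC4-2B (-2.21, adjusted p = 0.0255, and -1.88 without RC4-2B replicate 2). Both have near-identical copies, so their counts are uncertain. GSTP1 had 0 counts in every library.

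Among regulators of pump genes, 11 of 13 were tested, with a median log2 fold change of 0.31 that was 0.14 without RC4-2B replicate 2. EPAS1, a subunit of hypoxia-inducible factor, had 18, 21 and 28 counts in C4-2B, against 75, 70 and 59 in RC4-2B (log2 fold change 1.65, SE 0.26, adjusted p = 0.0212, and 1.66 without RC4-2B replicate 2). NR1I2, the xenobiotic receptor that induces ABCC2 in liver, had 0 counts in every library. Of the proteins that anchor pumps at the membrane, 0 of 7 tested genes were called by edgeR. MSN had a log2 fold change of 0.50 (adjusted p = 0.0879) and NHERF2, listed as SLC9A3R2, of -0.66 (adjusted p = 0.107). Both were called without RC4-2B replicate 2, MSN higher at 0.40 (adjusted p = 0.0104) and NHERF2 lower at -0.48 (adjusted p = 0.00476). The remaining ABCC genes and their channel partners had 2 of 5 tested and 0 called, with ABCC8 at 0.92 (adjusted p = 0.199) and KCNJ11 at -0.38 (adjusted p = 0.479). Leaving out RC4-2B replicate 2, these were 0.95 (adjusted p = 0.123) and -0.05 (adjusted p = 0.863). Of the other ABCG genes ABCG1 was the only 1 of 4 tested, at 0.24 (adjusted p = 0.514), or 0.14 without RC4-2B replicate 2 (adjusted p = 0.729). Without C4-2B replicate 1, 2 or 3, or without RC4-2B replicate 3, edgeR called 0 of the 37 or 38 pathway genes tested. At an unadjusted p under 0.05 were 6 or 7 of them. Those fits called 44 to 78 of all 15372 to 15519 genes tested, with 1704 to 2774 at an unadjusted p under 0.05. Without RC4-2B replicate 2, 6 of 38 were called (15.8%, against 12.5% of all genes tested), 4 higher and 2 lower. Besides genes named above, these included GSTA4, of the glutathione list, at 0.55 (adjusted p = 0.0279). With all libraries GSTA4 was at 0.51 (adjusted p = 0.133) and was not called.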

How the data were processed

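Libraries of C4-2B and RC4-2B (3 biological replicates each, per the labels) were analysed from 2 tables that the authors made after mapping reads to GRCh38 with STAR. The deposited counts are whole reads per gene without normalization, and the deposited FPKM values are scaled by the authors to gene length and library total. The counting program, its strand setting and the annotation release are not given in the sources used here. Columns were matched to samples by the names in the labels.

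Counts were scaled by TMM and filtered by filterByExpr (minimum 10), and 15054 genes were tested with edgeR 4.0.16 (R 4.3.3) by glmQLFit and glmQLFTest with cell line as the only term. P-values were adjusted by Benjamini-Hochberg over all genes tested, with a threshold of 0.05. CPM values are TMM-scaled, and the floor is 3 counts in a library. GC content was that of the gene's longest GENCODE transcript, and like-GC genes lay within 1 percentage point of a member.

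Alternatives were RLE and upper-quartile scaling, DESeq2 1.42.0, other filters, a block for replicate number, leave-one-out fits, limma 3.58.1 on log2(FPKM + 1) and log2(FPKM + 0.1), a GC correction (lowess, span 0.2), and that correction without RC4-2B replicate 2, which was added after the data were seen. All pairs of libraries within a line differed by more than sampling noise (chi-square per gene 3.17 to 58.7).

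The members and the gene lists were chosen with earlier results of these data known. Named are the members, ABCB1, the list genes called or, in a list without calls, the smallest p in each direction, the nearest tested neighbours and the genes most like the member with the highest FPKM and with the largest change. ABCC6P1, the overlap partners DLK2 and LONP2, and GSTP1, NR1I2, GSTA4 and COL1A1 were named after their values were seen.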

Additional observations from a re-analysis of the deposited data

How the results depend on the processing

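The count of members called by edgeR was 0, and it was 0 under each of the alternatives run, with a lowest adjusted p of 0.133 (ABCC4). The number of genes called among all tested, 298 here (162 higher and 136 lower), was 902 with DESeq2, 1250 without the filter, 104 and 86 with limma on log2(FPKM + 1) and log2(FPKM + 0.1), 1148 with the GC correction, and 2059 with that correction and RC4-2B replicate 2 left out. Leaving out 1 library gave 44 to 1925, the highest without RC4-2B replicate 2. With the replicate block it was 129 (55 higher and 74 lower). Deviations of log2 CPM from the mean of the own line were correlated between same-numbered libraries over 11259 genes. The correlations were 0.313, 0.177 and -0.0728 for replicates 1, 2 and 3. With 3 libraries per line they cannot decide whether the replicate numbers pair the samples. Pathway genes called, 3 here, were 5 with DESeq2, 5 without the filter, 0 with the replicate block (8 at an unadjusted p under 0.05), 1 with limma on log2(FPKM + 0.1), 6 with the GC correction and RC4-2B replicate 2 left out, and 0 to 6 with 1 library left out. Direction turned for ABCC1 with the GC correction (log2 fold change 0.033) and for ABCC5 when 1 library was left out (-0.059 to 0.211). The order of levels changed in 0 to 2 places with 1 library left out: ABCG2 with ABCC6, or ABCC2 with ABCC3. With a floor of 10 counts, 4 members were silent rather than 2. The cause of these changes was not tested. ABCC2, ABCC3, ABCC11 and ABCC12 did not pass the filter on low counts, and none was called without it. For ABCC3 the counting interval of the ratio, 1.34 to 26.0, lay above 1. Its RC4-2B libraries disagreed, with 7, 6 and 1 counts.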
